A study of Mus musculus with 461 samples.

Results

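The cells described here are single mouse cells from reprogramming cultures in which Pou5f1 (Oct4), a transcription factor at the centre of the pluripotent state, was present at 10 TPM (transcripts per mega-transcript) or more. Of 461 cells in the series, 144 carried the title prefix b2 at day 7 or day 5, and 88 of these were over the threshold, 49 at day 7 and 39 at day 5. They made up 75.4% of the 65 day 7 cells (63.1 to 85.2, exact Clopper-Pearson 95% interval) and 49.4% of the 79 day 5 cells (37.9 to 60.9). All groups started from embryonic fibroblasts of OG2 transgenic mice, a line with a green fluorescent reporter driven by Oct4 sequences, on a background of 1/2 129SVJ, 3/8 C57B6 and 1/8 CBA. Both days were grown in iCD1, a chemically defined medium, in the 7F course. The labels do not list its factors. The published cocktail is Jdp2, Kdm2b, Map2k6, Glis1, Nanog, Esrrb and Sall4, whose vector and native transcripts cannot be told apart in gene counts. Every cell was captured on the Fluidigm C1 system and is 1 sample, and the labels name neither an animal nor a culture, a sort or an age.

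Members were chosen by the Pou5f1 TPM of each cell, so its level is a description. The lowest members held 12.2 TPM at day 7 and 17 TPM at day 5, while the highest cells left out held 5.89 TPM at day 7 and 7.34 TPM at day 5. Among members Pou5f1 (ENSMUSG00000024406) ran from 12.2 to 324 TPM with a median of 92.7 at day 7, and from 17 to 449 TPM with a median of 115 at day 5. The label fitted most members. At least 8 of 11 pluripotency markers were at 1 TPM or more in 46 of 49 day 7 cells and in 33 of 39 day 5 cells, with a median of 10 on both days. Pou5f1 itself is 1 of the 11 and was present in every member by the rule, so only the other markers bear on the label. At most 5 of these markers were found in 1 day 7 cell and in 3 day 5 cells. Fibroblast markers, at least 2 of 12 at 10 TPM or more, were present in 3 cells of each day. Of 4 contractile markers at least 2 reached 10 TPM in 3 day 7 cells and in 1 day 5 cell. Their part in the results was not tested.

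Pluripotent mouse cells come in a naive form, resembling the early inner cell mass, and in later formative and primed forms. Signals of fibroblast growth factor (FGF) through the kinase ERK move cells towards the later forms, and the Sprouty and Dusp proteins, induced by that signal, act back on it as inhibitors. Oxygen sensing runs through hypoxia-inducible factors, which switch on glycolytic enzymes, the pyruvate dehydrogenase kinase Pdk1 and the mitophagy receptor Bnip3, and also their own inhibitor Egln1, a prolyl hydroxylase that marks these factors for breakdown.

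The promoters of genes on opposite sides of the comparison are shown because Bnip3 and Egln1 were higher at day 7 while Pdk1 and Spry2 were lower. The RefSeq windows, on GRCm38.p6, run 5′ to 3′ on the strand of the gene, from 250 bases before its start to 50 after it. Capitals mark ACGTG or GCGTG, the core letters of the hypoxia response element, on either strand in the first 3 windows, and CCGGAA, the core letters of ETS factor sites, on either strand in the Spry2 window. The windows are chr7:138909457-138909756 on the minus strand for Bnip3, chr2:71872974-71873273 on the plus strand for the first of the Pdk1 starts, chr8:124949205-124949504 on the minus strand for Egln1 and chr14:105896770-105897069 on the minus strand for Spry2.
Bnip3: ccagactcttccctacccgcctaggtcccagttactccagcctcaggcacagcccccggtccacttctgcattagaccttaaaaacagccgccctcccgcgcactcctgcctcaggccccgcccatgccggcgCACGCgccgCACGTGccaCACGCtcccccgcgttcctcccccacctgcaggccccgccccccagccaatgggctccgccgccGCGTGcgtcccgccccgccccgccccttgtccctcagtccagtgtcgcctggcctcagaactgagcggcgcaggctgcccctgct
Pdk1: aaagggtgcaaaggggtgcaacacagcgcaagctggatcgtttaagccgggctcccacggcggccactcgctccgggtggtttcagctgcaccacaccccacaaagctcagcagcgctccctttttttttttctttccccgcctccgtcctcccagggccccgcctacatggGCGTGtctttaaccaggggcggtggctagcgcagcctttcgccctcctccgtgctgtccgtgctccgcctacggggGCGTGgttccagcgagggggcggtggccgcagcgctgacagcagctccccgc
Egln1: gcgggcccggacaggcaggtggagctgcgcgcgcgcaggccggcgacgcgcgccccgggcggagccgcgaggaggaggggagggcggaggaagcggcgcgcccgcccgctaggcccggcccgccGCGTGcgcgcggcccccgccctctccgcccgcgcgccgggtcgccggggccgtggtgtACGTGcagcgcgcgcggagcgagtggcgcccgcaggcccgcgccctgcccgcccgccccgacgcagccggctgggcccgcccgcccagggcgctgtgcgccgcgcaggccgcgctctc
Spry2: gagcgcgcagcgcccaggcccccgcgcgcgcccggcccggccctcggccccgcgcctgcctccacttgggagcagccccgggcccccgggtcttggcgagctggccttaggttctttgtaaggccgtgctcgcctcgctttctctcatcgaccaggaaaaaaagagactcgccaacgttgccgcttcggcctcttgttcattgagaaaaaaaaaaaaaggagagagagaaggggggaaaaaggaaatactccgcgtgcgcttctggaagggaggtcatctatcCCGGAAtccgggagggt
The Bnip3 window held 5 matches, a pair of which overlap where the letters CACGTG read the same on both strands, and the Pdk1 and Egln1 windows held 2 each. The Spry2 window held 1 ETS match and 1 hypoxia core, which is not marked. Of 32817 windows of the same length, 43.8% held a hypoxia core and 14.9% the ETS core, so that these matches describe the letters and name no site in use. A second Pdk1 window held no hypoxia core, and the window of Dusp6, another gene lower at day 7, no ETS core, which says only that these letters are not in those windows.

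Depth and library composition differed between the days. Counts per cell had a median of 3.18 M (mega) at day 7 and 2.36 M at day 5, and the summed counts were 158.8 M over the day 7 members and 90.9 M over the day 5 members. The number of genes with a count had a median of 8282 at day 7 and 8256 at day 5. No pair of members held identical values. A group of 174 genes varied together with Cxcr2 over all 461 cells (correlation of 0.6 or more), among them Tyr, Siglec1 and Chrna1, known from pigment cells, macrophages and muscle. These genes took a median of 1.85% of the counts of a day 7 cell (0.650 to 6.58%) and 4.10% of those of a day 5 cell (0.951 to 16.7%). Their share was under 3% in 44 of 49 day 7 cells and in 11 of 39 day 5 cells. AY036118, a transcript that overlaps ribosomal RNA sequence, stood at 2046 CPM (counts per mega-count) at day 7 and 8476 CPM at day 5, and beta-actin (Actb) at 5550 CPM at day 7 and 13535 CPM at day 5. The part of these differences in the lower values at day 7 was not tested.

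**Figure D1:**
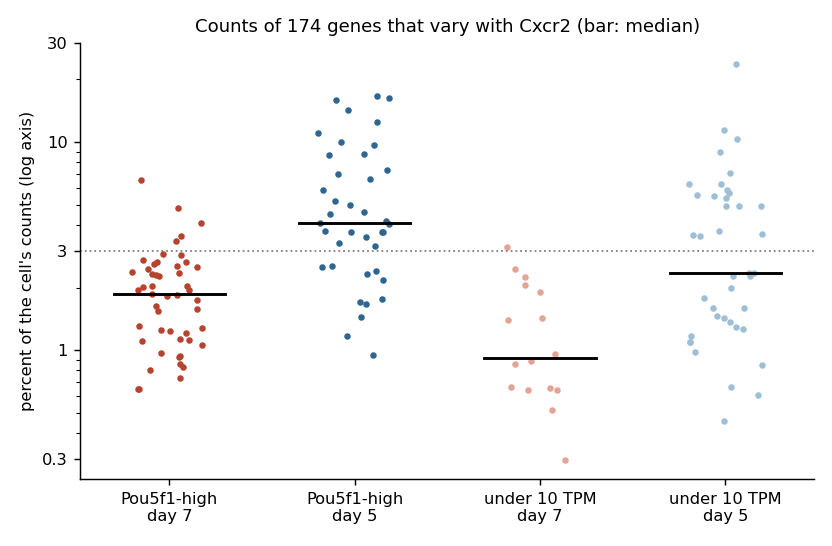
Share of each cell's counts, in percent on a log axis, held by the 174 genes that vary with Cxcr2, for Pou5f1-high cells and for cells under 10 TPM of Pou5f1, day 7 beside day 5. Points are cells, bars are medians and the dotted line is 3%. The medians are 1.85% at day 7 and 4.10% at day 5 in Pou5f1-high cells, and 0.922% at day 7 and 2.36% at day 5 in the others.

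Expected counts were summed over the members of each day, and 10244 genes had a mean of 5 CPM or more over both sums. Each day is 1 set of cells and cells are not replicates, so no difference between the days was tested, and higher or lower means by 2-fold or more on the log2(CPM + 0.5) scale. At day 7, 1429 genes (13.9%) were higher and 1157 (11.3%) lower than at day 5, together 25.2% of those measured. The median gene had a log2 ratio of 0.04. In 1231 genes (12%) the higher value and in 972 (9.49%) the lower value was also past 2-fold when the highest cell of each gene was left out of each day. Higher genes made up 55.3% of those past 2-fold, but 68.2% when the deposited TPM were averaged, which moved the median of the same genes to 0.22.

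**Figure D2:**
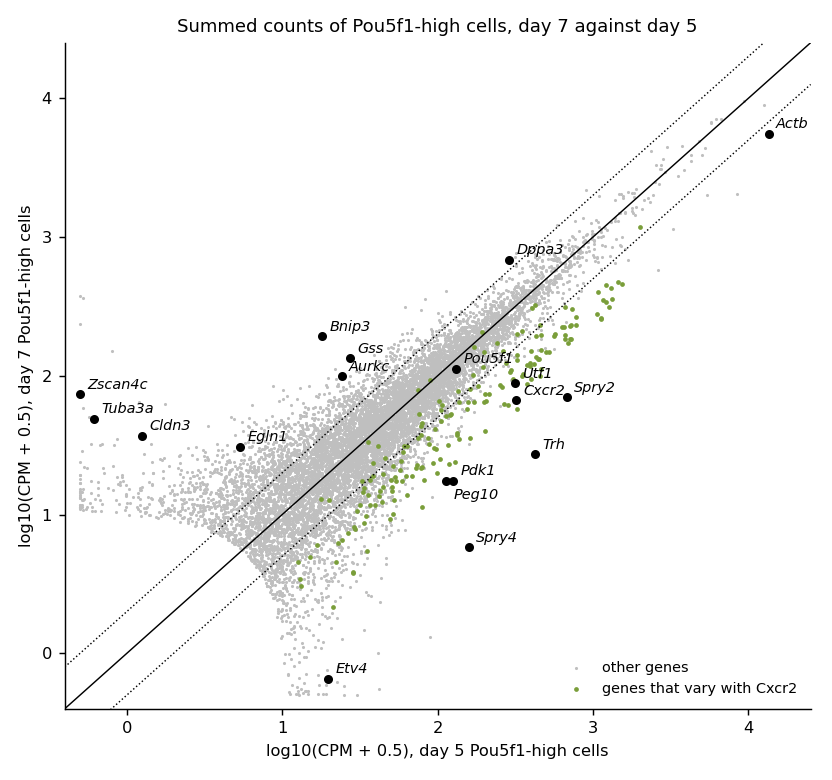
Summed counts of Pou5f1-high cells at day 7 (vertical) against day 5 (horizontal), as log10(CPM + 0.5), 1 point per gene with a mean of 5 CPM or more. The solid line marks equal values and the dotted lines 2-fold. Bnip3, Egln1, Cldn3 and Tuba3a lie above the lines and Spry2, Spry4, Trh, Pdk1 and Etv4 below them, and the genes that vary with Cxcr2 form a band along and below the lower line.

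Bnip3 (ENSMUSG00000078566), which recruits autophagy to mitochondria, had the highest log2 ratio among genes at 50 CPM or more in the higher day and detected in at least 50% of its cells, and Pdk1 (ENSMUSG00000006494), which keeps pyruvate out of the mitochondrial citric acid cycle, was among the 12 lowest. Textbooks place both downstream of the same hypoxia factors. Bnip3 ran from 0 to 1771 TPM with a median of 88.4 in day 7 cells, and from 0 to 228 TPM with a median of 0 in day 5 cells. It was at 1 TPM or more in 39 of 49 day 7 cells (79.6%, 65.7 to 89.8) and in 11 of 39 day 5 cells (28.2%, 15.0 to 44.9), so the groups overlap in the cells without it. Summed, it stood at 193 CPM at day 7 (190.8 to 195, exact Poisson 95% interval) and 17.6 CPM at day 5 (16.7 to 18.5), a log2 ratio of 3.42. Pdk1 ran from 0 to 88.7 TPM with a median of 0.3 in day 7 cells, and from 0 to 397 TPM with a median of 25.1 in day 5 cells. Only 7 of 49 day 7 cells were above the day 5 median. Its sums were 16.98 CPM at day 7 (16.4 to 17.6) and 125 CPM at day 5 (123 to 128), a log2 ratio of -2.85. At 10 TPM or more, Bnip3 without Pdk1 was seen in 26 day 7 cells and 4 day 5 cells, Pdk1 without Bnip3 in 5 day 7 cells and 17 day 5 cells, and both in 10 day 7 cells and 6 day 5 cells.

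Of 29 hypoxia-type and glycolysis genes in the filter, 5 were higher and 2 lower at day 7, shares near the 13.9% and 11.3% of all genes, with a list median of 0.50 against 0.04 for all genes. Egln1 had the next highest ratio, 30.3 CPM at day 7 and 4.87 CPM at day 5 (log2 ratio 2.52). It ran from 0 to 170 TPM with a median of 1.93 in day 7 cells and from 0 to 17.2 TPM with a median of 0 in day 5 cells. Also past the fold were Ndrg1, a stress-induced gene (1.42), P4ha1, a collagen prolyl hydroxylase (1.32), and Pfkl, the liver-type phosphofructokinase (1.29). Ndrg1 had 43.5% of its day 7 counts in 1 cell. Adm, the vasodilator peptide adrenomedullin, had the lowest ratio of the list, but all its day 5 counts came from 1 cell. Most glycolytic enzymes stayed within 2-fold, for example lactate dehydrogenase Ldha (0.00), the glucose transporter gene Slc2a1 (0.50) and aldolase Aldoa (0.85).

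Among the feedback genes of FGF and ERK, Spry4 (ENSMUSG00000024427) and Spry2 (ENSMUSG00000022114), both Sprouty inhibitors of receptor kinase signals, were far lower at day 7. Spry4 ran from 0 to 59.3 TPM with a median of 0 in day 7 cells, and from 0 to 256 TPM with a median of 23.7 in day 5 cells. It was at 1 TPM or more in 5 of 49 day 7 cells (10.2%, 3.40 to 22.2) and in 27 of 39 day 5 cells (69.2%, 52.4 to 82.98). The sums were 5.32 CPM at day 7 (4.97 to 5.69) and 158 CPM at day 5 (156 to 161), a log2 ratio of -4.77. Spry2 was detected in 45 of 49 day 7 cells and in 39 of 39 day 5 cells. It ran from 0.1 to 229 TPM with a median of 38.2 in day 7 cells, and from 13.3 to 1688 TPM with a median of 299.6 in day 5 cells. The groups overlap between 13.3 and 229 TPM, and no day 7 cell reached the day 5 median. Its sums were 69.6 CPM at day 7 (68.3 to 70.9) and 678 CPM at day 5 (673 to 684), a log2 ratio of -3.28. At 10 TPM or more, both genes were seen in 4 day 7 cells and in 22 day 5 cells. Spry2 without Spry4 was seen in 40 day 7 cells and in 17 day 5 cells, and neither in 5 and 0 cells. Spry2 thus reached 10 TPM in every day 5 cell and in most day 7 cells. The absence of cells with Spry4 alone therefore says nothing about a link of the 2 genes.

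Of 17 FGF and ERK genes in the filter, 5 were higher and 6 lower at day 7, against 13.9% higher and 11.3% lower among all genes, with a list median of -0.06. The lower members besides the Sprouty genes were Etv and Dusp genes, and a Dusp gene was also among the higher members. Etv4, an ETS factor, stood at 0.155 CPM at day 7 and 19.2 CPM at day 5 (-4.91), and was at 1 TPM or more in 3 of 49 day 7 cells and 22 of 39 day 5 cells. The related Etv1 (-1.66) and the phosphatases Dusp4 (-2.35) and Dusp6 (-1.43) were lower as well, whereas Etv5 (0.19), Spry1 (-0.75) and Spred2 (0.41) stayed within 2-fold. Higher members were the receptors Fgfr2 (1.63) and Fgfr1 (1.30), the phosphatase Dusp5 (1.42), Ier3 (1.48) and the immediate early factor Egr1 (1.28). Under single alternatives Fgfr2 was as low as 0.21, Fgfr1 0.41, Ier3 0.14 and Dusp5 -0.20, so that these 4 are not past 2-fold throughout, while Egr1 stayed between 1.19 and 1.68. Among the other signalling lists, 2 immediate early genes of 11 were higher, Egr1 and Atf3, and 2 were lower, Myc (8.25 CPM at day 7 and 28.3 CPM at day 5) and Ier2 (13.3 CPM at day 7 and 39.9 CPM at day 5).

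**Figure D3:**
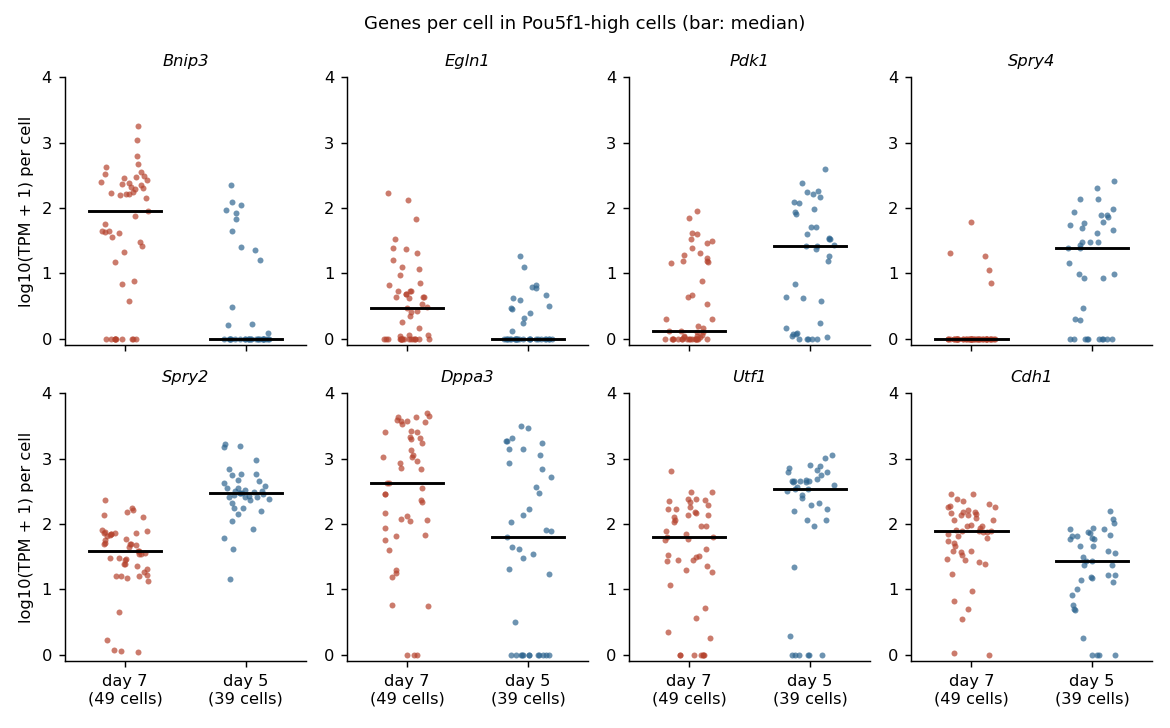
TPM per cell, as log10(TPM + 1), of 8 genes in Pou5f1-high cells, day 7 left of day 5. Points are cells and bars are medians. Bnip3 has a median of 88.4 TPM at day 7 and 0 at day 5, Spry4 is at 0 in most day 7 cells, and no day 7 point of Spry2 reaches the day 5 median of 299.6 TPM.

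The pluripotency genes differed little apart from a few. Of 38 core and naive genes in the filter, 1 was higher and 2 lower at day 7, against 13.9% and 11.3% of all genes. The list median was 0.17, and the list includes Pou5f1, by which members were chosen on both days. Dppa3 (Stella), a naive and early germ cell protein that guards DNA methylation, ran from 0 to 4887 TPM with a median of 427 in day 7 cells, and from 0 to 3193 TPM with a median of 62.3 in day 5 cells. It was detected in 46 of 49 day 7 cells (93.9%, 83.1 to 98.7) and in 27 of 39 day 5 cells (69.2%, 52.4 to 82.98). Its sums were 687 CPM at day 7 and 288 CPM at day 5, a log2 ratio of 1.25, which was 0.96 with every cell thinned to 300000 counts and 0.36 without the cells that had 3% or more of the Cxcr2-type counts. Utf1, a chromatin-bound factor of embryonic stem cells, went the other way. It ran from 0 to 634 TPM with a median of 61.5 in day 7 cells and from 0 to 1127 TPM with a median of 342 in day 5 cells, and only 1 day 7 cell was above the day 5 median. Its sums were 87.7 CPM at day 7 and 314 CPM at day 5 (-1.83). Eras, a Ras protein of embryonic stem cells, was the other lower member (-1.63) and was detected in 10 of 49 day 7 cells and 16 of 39 day 5 cells, but stood at 3.51 without the cells that had 3% or more of the Cxcr2-type counts. At 10 TPM or more, Dppa3 without Utf1 was seen in 10 day 7 cells and 2 day 5 cells.

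The remaining pluripotency genes lay close together. Sox2, the partner of Pou5f1, was at 58.9 CPM at day 7 and 60.8 CPM at day 5 (-0.05), and Zfp42 (Rex1), a naive marker, at 288 CPM at day 7 and 279 CPM at day 5 (0.05). Dppa5a, an RNA-binding protein, had a median of 11933 TPM at day 7 and 7520 TPM at day 5, with sums that differed by 0.29 on the log2 scale. Klf5 (-0.95), Fbxo15 (0.94), Fgf4 (0.90) and Nr0b1 (-0.84) came nearest to the fold among the members within it. Of the cocktail factors, Nanog (0.50), Sall4 (0.29), Esrrb (-0.09), Kdm2b (-0.30) and Map2k6 (0.06) stayed within 2-fold. Jdp2, a repressor of AP-1 type, stood at 4.12 CPM at day 7 and 16.6 CPM at day 5 (-1.89), and Glis1 was under the filter on both days. Of 10 formative and primed genes in the filter none was higher and 3 were lower, Brachyury (T), Otx2 and Cldn6. Of all genes 13.9% were higher and 11.3% lower, and only 1 of the 3 stayed lower without its highest cell. Brachyury was at 1 TPM or more in 1 day 7 cell and 3 day 5 cells, while Otx2 (0.06) and Cldn6 (2.10) lost their lower value without their highest cell.

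By the rule for the largest ratios, the rises after Bnip3 were Epb41, a membrane skeleton protein (67.6 CPM at day 7 and 9.60 CPM at day 5, 2.75), the lipid kinase gene Pi4k2a (2.74), the tetraspanin gene Tspan9 (2.64), the thrombin receptor gene F2r (2.50), the Integrator subunit gene Ints4 (2.35), the protease gene Fam111a (2.31), the glutathione synthetase gene Gss (2.29), Hsdl1 of the steroid dehydrogenase family (2.10), the autophagy gene Atg14 (2.06), the meiotic Aurora kinase gene Aurkc (2.04) and the imprinted RNA H19 (1.93). Gss was among the most general of them. It ran from 0 to 584 TPM with a median of 122 in day 7 cells and from 0 to 212 TPM with a median of 3.34 in day 5 cells. F2r had 64.6% of its day 7 counts in 1 cell and H19 61.9%, and H19 had 81.8% of its day 5 counts in 1 cell. All 12 named rises stayed past 2-fold without the highest cell of each day, as the rule requires. None of them belongs to the genes that vary with Cxcr2. H19 was at 0.33 without the cells holding 3% or more of the Cxcr2-type counts.

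The falls after Spry4 were led by Trh, the thyrotropin-releasing hormone precursor, which ran from 0 to 331 TPM with a median of 0 in day 7 cells and from 0 to 1889 TPM with a median of 208 in day 5 cells. Its sums were 26.6 CPM at day 7 and 423 CPM at day 5 (-3.97). The cationic amino acid transporter gene Slc7a7 (-3.01), the retinaldehyde dehydrogenase gene Aldh1a3 (-2.77) and the imprinted retroelement gene Peg10 (-2.71) were also among them. The other named falls were Arhgef40, a guanine nucleotide exchange factor (-2.49), Wdr66, a cilium gene (-2.35), the apoptosis inhibitor gene Birc3 (-2.31), the chemokine receptor gene Cxcr2 (-2.27) and the methyltransferase gene Setd4 (-2.23). Of these 12 falls, 4 belong to the 174 genes that vary with Cxcr2. In that group 144 genes were lower and 0 higher at day 7, with a median of -1.60, against 11.3% lower and 13.9% higher among all genes. The group was chosen by its correlation with Cxcr2, itself a named fall, over cells that include the members. Its lower values thus follow at least in part from that choice. Leaving out the cells with 3% or more of their counts in this group leaves 44 cells at day 7 and 11 at day 5. There Arhgef40 was at -0.69, Wdr66 at -0.65, Birc3 at -0.04, Cxcr2 at -0.15 and Aldh1a3 at 0.05, none of them past 2-fold. All but Aldh1a3 are among the genes by which cells were left out. Their smaller falls follow from that choice and are no contrast to the genes that come next. In the remaining cells Spry4 was at -5.37, Spry2 at -3.65, Pdk1 at -3.75, Trh at -2.52, Peg10 at -3.76 and Bnip3 at 2.56. Of 1527 genes with a count in all 88 members, 8 were higher and 187 lower at day 7, against 13.9% and 11.3% of all genes. Of those lower, 111 belong to the Cxcr2-type genes.

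The epithelial genes had 9 of 22 members higher and 3 lower, against 13.9% and 11.3% of all genes, with a list median of 0.29. In the cells under 10 TPM of Pou5f1 the same 22 genes had a median of 2.37, against 0.13 for all genes there. Higher epithelial values at day 7 were thus not particular to the Pou5f1-high cells. Junction genes held the highest ratios. Cldn3, a claudin of tight junctions, stood at 36.5 CPM at day 7 and 0.759 CPM at day 5 (4.88), and was at 1 TPM or more in 22 of 49 day 7 cells and 4 of 39 day 5 cells. Ocln (occludin) was at 10.4 CPM in 11 day 7 cells and had no count in 39 day 5 cells, which allows a share of up to 7.69%. The tight junction gene Tjp3 (2.99) and the desmosome gene Dsp (1.73) were higher too, Tjp3 in only 6 day 7 cells and 2 day 5 cells. Cldn3, Ocln and Tjp3 were near 0 CPM at day 5 and pass the filter through day 7 alone. They could therefore only be counted as higher. Cdh1 (E-cadherin), the adhesion molecule of epithelia and of naive pluripotent cells, ran from 0 to 289 TPM with a median of 76.95 in day 7 cells and from 0 to 155 TPM with a median of 26.6 in day 5 cells, with sums of 293 CPM at day 7 and 142 CPM at day 5 (1.05). The epithelial factor Elf3 (1.08) was among the higher members, while Epcam (0.03) and Krt8 (0.53) were not. Lower members were the splicing regulator Esrp1 (-1.84), the sorting adaptor Ap1m2 (-1.05) and Cldn6. Of 10 fibroblast and mesenchyme genes in the filter, Cdh2 (N-cadherin, -2.69) and Col1a2 (-2.57) were lower and Pdgfra was higher, the last at 0.04 without its highest cell. Both lower genes stayed past 2-fold without their highest cell. Col1a2 had counts in 26 of 49 day 7 cells and 14 of 39 day 5 cells. A single cell held 57.9% of its day 7 counts, and another 48.9% of its day 5 counts. The summed fibroblast markers ran from 0 to 273 TPM with a median of 0.59 in day 7 cells and from 0 to 128 TPM with a median of 0.1 in day 5 cells. Their part in these values was not tested. Collagen Col1a1 was under the filter at 3.50 CPM at day 7 and 2.89 CPM at day 5.

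**Figure D4:**
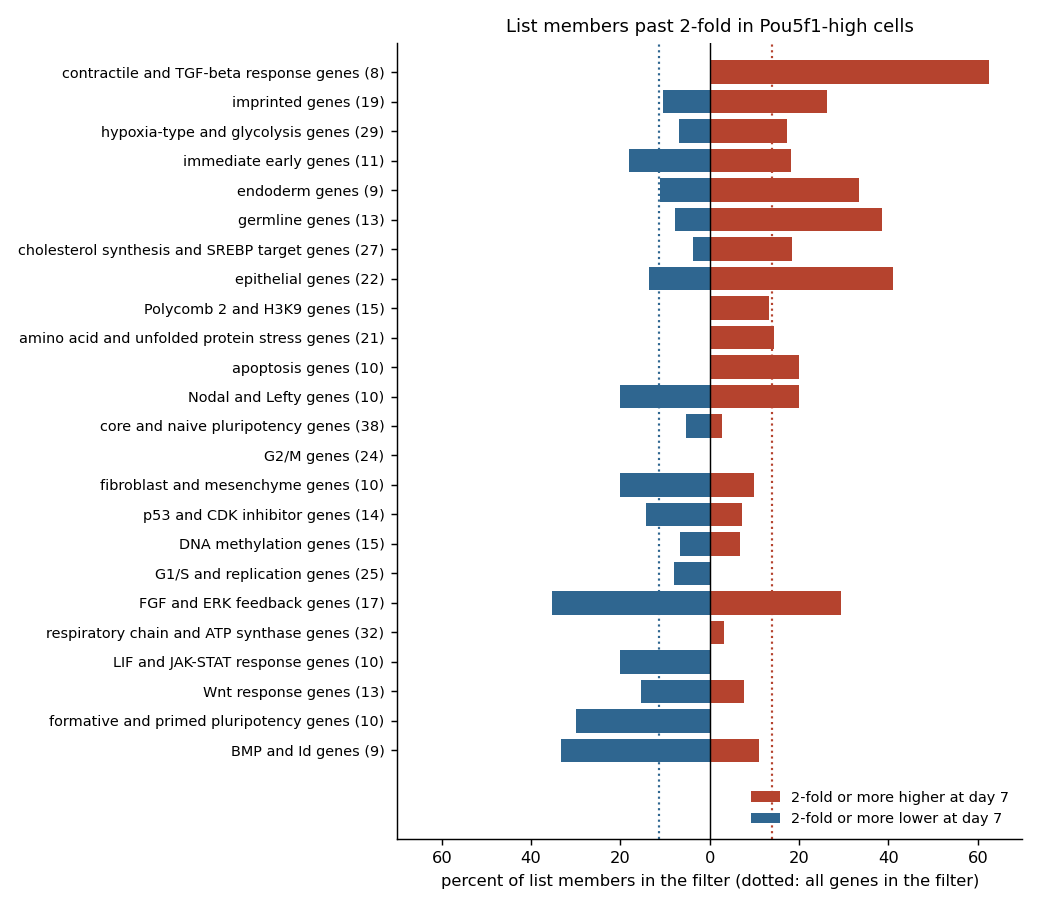
Percent of the members in the filter (number in brackets) that were 2-fold or more higher (right) or lower (left) at day 7 than at day 5 in Pou5f1-high cells, for lists with 8 or more such members, ordered by list median. Dotted lines give the same shares over all 10244 genes, 13.9% higher and 11.3% lower. Epithelial and germline genes have 9 of 22 and 5 of 13 members higher, and the G1/S, G2/M and core and naive pluripotency lists lie within the dotted lines.

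Of 13 germline genes in the filter, 5 were higher and 1, the Piwi gene Piwil2, was lower, against 13.9% and 11.3% of all genes. The list median was 0.41. Tuba3a, an alpha-tubulin known from testis, was found mainly at day 7. It was at 10 TPM or more in 17 of 49 day 7 cells and in 0 of 39 day 5 cells (an upper limit of 7.69% for a count of 0), with sums of 48.5 CPM at day 7 and 0.112 CPM at day 5. The homeobox genes Rhox9 (2.46) and Rhox6 (1.74), the meiotic axis gene Hormad1 (2.36) and the piRNA pathway gene Tdrd12 (1.35) were the others. Tdrd12 was the most general, with a median of 162 TPM in day 7 cells and 13.5 TPM in day 5 cells. Rhox9 was at 1 TPM or more in only 13 day 7 cells and 5 day 5 cells. Aurkc, which acts in meiosis, ran from 0 to 643 TPM with a median of 57.6 in day 7 cells and from 0 to 304 TPM with a median of 0 in day 5 cells. Dazl (0.56), the germ cell RNA-binding protein, stayed within 2-fold.

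A single day 7 cell carried some of the transcripts that mark a 2-cell-like state, the rare condition in which pluripotent cells switch on genes of the cleavage embryo. That cell held 2596 TPM of Zscan4c, 1160 TPM of Zscan4f, 779 TPM of Duxf3, 470.1 TPM of Usp17lc and 393 TPM of Tcstv1. Zfp352, Tdpoz3, Tdpoz4, Spz1 and Zscan4e of the same list were at 0 in that cell. Zscan4c was at 0 in every other member of both days. Zscan4f reached at most 3.91 TPM in the other day 7 cells and was at 0 at day 5. The cell held 12.4 TPM of Pou5f1, next to the lowest of the day 7 members, 21.3 TPM of Sox2 and 11041 TPM of Dppa5a. The Zscan4, Usp17 and Tcstv genes have near-identical copies, so the split between copies is uncertain. All 4 listed 2-cell-like genes in the filter were past 2-fold because of this cell, and none without it. A further pattern held by few cells was alpha-globin, Hba-a1, which had counts in 2 day 7 cells with 74.2% in 1 of them.

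Imprinted genes had 5 of 19 members higher and 2 lower, against 13.9% and 11.3% of all genes, with a list median of 0.57. Besides H19, its neighbour Igf2, a growth factor (83.9 CPM at day 7 and 22.2 CPM at day 5), Plagl1, a zinc-finger factor (158 CPM at day 7 and 47.2 CPM at day 5), Zdbf2 (1.10) and Phlda2 (1.03) were higher, the last at 0.85 without its highest cell. Peg10 stood at 16.9 CPM at day 7 and 113 CPM at day 5, and Snrpn, a splicing protein gene, at 142 CPM at day 7 and 294 CPM at day 5 (-1.05). Igf2 had 65.7% of its day 5 counts in 1 cell, and its log2 ratio over the alternatives ran from 0.11 to 2.97.

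Cholesterol synthesis genes had 5 of 27 members higher, against 13.9% of all genes, and 1 lower, with a list median of 0.39. The lower member, the lipid carrier gene Stard4 (-1.05), was at -0.77 without its highest cell. The higher members were enzymes in the middle of the pathway and its regulator, namely Fdps (287 CPM at day 7 and 119 CPM at day 5), Fdft1 (251 CPM at day 7 and 102 CPM at day 5), Cyp51 (1.31), Sqle (1.11) and the transcription factor gene Srebf2 (1.33). Fdps was at 1 TPM or more in 48 of 49 day 7 cells and 34 of 39 day 5 cells. Of 32 respiratory chain and ATP synthase genes only Sdha was past 2-fold, at 1.02, and at 0.96 without its highest cell, with a list median of -0.15. Of 21 amino acid and unfolded protein stress genes 3 were higher, a share near the 13.9% of all genes. One of them was the asparagine synthetase gene Asns, at 1219 CPM at day 7 and 586 CPM at day 5.

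Few cell division genes differed. Of all genes 13.9% were higher and 11.3% lower, which goes for every list here. None of 24 G2/M genes was past 2-fold, with a median of 0.09 and with Cenpa (-0.98) and Mki67 (0.96) nearest. Of 25 G1/S and replication genes 0 were higher and 2 lower, E2f1 (-2.95) and Ccnd2 (-1.31, and -0.35 without its highest cell). Among 14 p53 and CDK inhibitor genes the retinoblastoma gene Rb1 was higher (2.89) and Phlda3 (-1.36) and Cdkn1b (p27, -1.22) were lower. Cdkn1a (p21) was at 161 CPM at day 7 and 133 CPM at day 5, and the senescence locus Cdkn2a was under the filter at 0.471 CPM at day 7 and 0.112 CPM at day 5. Of 10 apoptosis genes, Casp8 (2.56) and Bcl2l1 (1.41) were higher and none was lower. Among 15 DNA methylation genes Tet3, an oxidising enzyme of methylated DNA, was higher (1.86) and Mbd3, a subunit of the NuRD repressor, lower (-1.31). Among 15 Polycomb and H3K9 genes Phf19 (4.72) and Suv39h1 (1.44) were higher, a share near the 13.9% of all genes. Phf19 was found in 6 day 7 cells and 1 day 5 cell.

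Bmp4, a signal that supports the naive state together with LIF, had the lowest ratio of the BMP list, at 3.91 CPM at day 7 and 46.1 CPM at day 5 (-3.40), and was detected in 8 of 49 day 7 cells and 21 of 39 day 5 cells. Its decoy receptor gene Bambi (-1.31) and Bmp7 (-1.11) were lower and the receptor gene Bmpr1a (1.53) was higher, out of 9 members with a median of -0.81. Over all genes, for comparison with this list and those after it, 13.9% were higher and 11.3% lower. Of 10 Nodal and Lefty genes, Acvr2b (2.45) and Pcsk6 (1.64) were higher and Fst (-3.92) and Furin (-1.69) lower. Of 13 Wnt genes, Dkk1 (1.86) was higher and Brachyury and Cdx1 (-1.40) lower, and 83.7% of the day 7 counts of Dkk1 came from 1 cell. Of 10 LIF and JAK-STAT genes Bcl3 (-1.83) and Socs2 (-1.01) were lower and none was higher, whereas Stat3 (-0.50) stayed within 2-fold.

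Contractile and TGF-beta response genes had 5 of 8 members higher, against 13.9% of all genes, with a median of 1.06, among them Actn1 (198 CPM at day 7 and 58.1 CPM at day 5), Ccn1 (30.8 CPM at day 7 and 5.86 CPM at day 5) and Ccn2 (1.02), while Ankrd1 was at 0.14 without its highest cell. The summed contractile markers ran from 0 to 348 TPM in day 7 cells and from 0 to 207 TPM in day 5 cells, with a median of 0 on both days and with Cnn1 at 0 in every day 5 cell, and their part in this list was not tested. The smooth muscle gene Tagln was at 1 TPM or more in 4 day 7 cells and 1 day 5 cell. Actn1 was general, at 1 TPM or more in 49 of 49 day 7 cells and 36 of 39 day 5 cells. Of 9 endoderm genes Pth1r (3.33), Col4a1 (2.12) and Col4a2 (1.68) were higher and Gata4 (-1.16) lower. For this list and those after it, the shares of all genes were 13.9% higher and 11.3% lower. Col4a1 had 79.2% of its day 7 counts in 1 cell, and Gata4 was at 1 TPM or more in 2 day 7 cells and 1 day 5 cell. Of 4 trophectoderm genes Gata2 was higher (3.71), in 10 day 7 cells and 1 day 5 cell, and of 4 neural genes Tubb3 (1.16). Of 5 blood and endothelial genes 4 were higher and 1, the macrophage gene Cd68, was lower (-1.17). Of the higher ones Tal1 was at 0.00 without its highest cell, and Pecam1, an adhesion molecule also present in pluripotent cells, was found in 35 of 49 day 7 cells and 22 of 39 day 5 cells. Of 5 interferon response genes 1, Ifi35, was higher (1.05).

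The cells under 10 TPM of Pou5f1 on the same days, 16 at day 7 and 40 at day 5, were measured in the same way. In these cells 2255 genes (21.1%) were higher and 1879 (17.6%) lower at day 7. Bnip3 stood at 222 CPM at day 7 and 16.3 CPM at day 5 there (3.73), Pdk1 at 18.6 CPM at day 7 and 225 CPM at day 5 (-3.56), Spry2 at 48.4 CPM at day 7 and 479 CPM at day 5 (-3.29), Spry4 at 18.9 CPM at day 7 and 186 CPM at day 5 (-3.26) and Trh at 18.3 CPM at day 7 and 255 CPM at day 5 (-3.77). All 5 genes were thus past 2-fold, in the same direction, in the cells under the threshold as well. Dppa3 (8.65 CPM at day 7 and 10.1 CPM at day 5) and Aurkc (0.0846 CPM at day 7 and 11.7 CPM at day 5) were not higher at day 7 in those cells. Peg10 went the other way, at 491 CPM at day 7 and 192 CPM at day 5 (1.36). Whether the differences of the cell sets themselves differ was not tested.

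Along the course of prefix b2, on counts scaled by the total alone, Bnip3 was at 47.7 CPM at day 0, 4.96 at day 1, 8.48 at day 3, 17.3 in Pou5f1-high cells at day 5 and 195.9 in those at day 7. Spry2 was at 173 CPM at day 0, 724 at day 1, 822 at day 3, 668 in Pou5f1-high cells at day 5 and 70.7 in those at day 7. Pdk1 was at 26.02 CPM at day 0, 53.03 at day 1, 307 at day 3, 123 in Pou5f1-high cells at day 5 and 17.2 in those at day 7. The day 7 level of Pdk1 and Spry2 was thus under that of day 0, and the day 7 level of Bnip3 over it. Trh, at 0.0110 CPM at day 0 and 1.45 at day 1, was at 420.5 at day 3, 417 in Pou5f1-high cells at day 5 and 27.03 in those at day 7. The sets of days 0 to 3 hold all cells of the day, so that they differ from the later values in the choice of cells too.

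**Figure D5:**
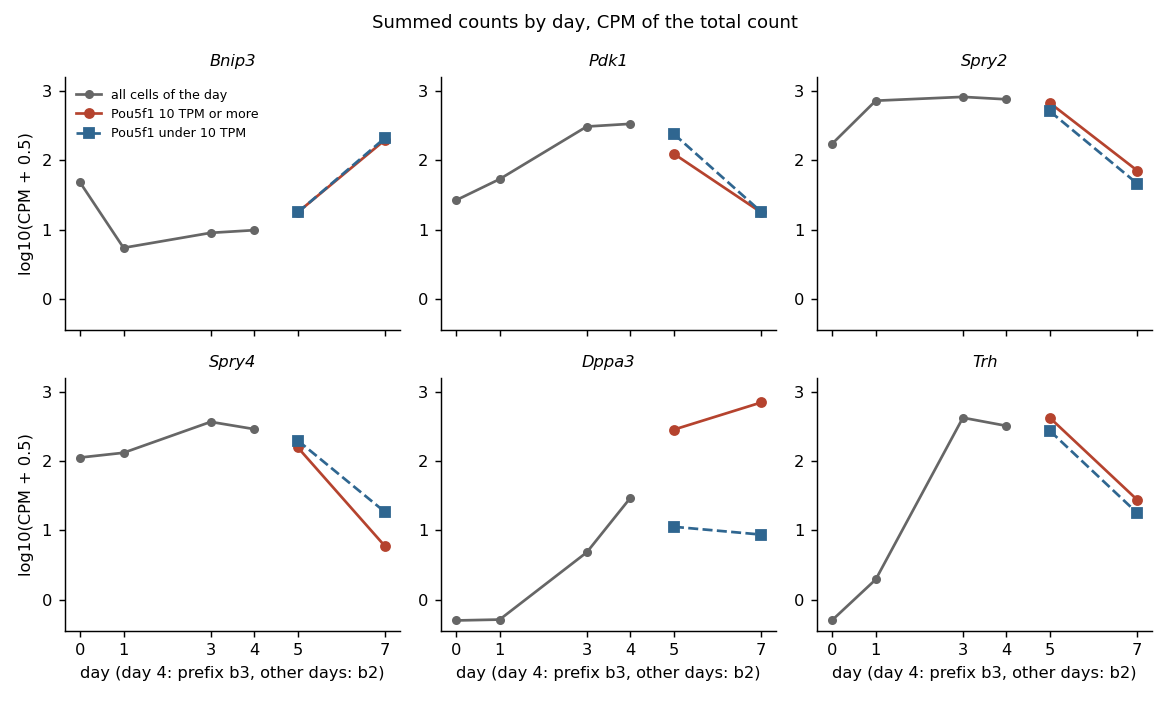
CPM of summed counts, as log10(CPM + 0.5), by day for 6 genes. Grey points are all cells of a day (day 4 is prefix b3, the other days b2), red points are Pou5f1-high cells and blue squares are cells under 10 TPM of Pou5f1. Between days 5 and 7 Bnip3 goes up and Pdk1, Spry2, Spry4 and Trh go down in both red and blue, and Dppa3 is at 698 CPM at day 7 and 283 CPM at day 5 in red, and at 8.17 CPM at day 7 and 10.7 CPM at day 5 in blue.

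A few cells of prefix b1 give a second look at both days, 2 over the threshold at day 7 and 3 at day 5. Bnip3 was at 212 and 0 TPM in the day 7 cells and at 15.1, 4.28 and 64.8 TPM in the day 5 cells. Egln1 was at 4.69 and 1.37 TPM in the day 7 cells and at 0.4, 0 and 0 TPM in the day 5 cells. Spry4 was at 0 in both day 7 cells and at 26.9, 0 and 0 TPM in the day 5 cells. For Pdk1 the day 7 cells held 16.3 and 11.7 TPM and the day 5 cells 24.6, 8.58 and 0 TPM, and for Spry2 the day 7 cells held 107 and 28.3 TPM and the day 5 cells 138, 2.54 and 58.6 TPM, so that both genes overlap. Dppa3 was at 0 and 176 TPM in the day 7 cells and at 126, 3262 and 4133 TPM in the day 5 cells, opposite to prefix b2. With so few cells, and with the meaning of the prefixes not given in the labels, no difference is read from these values.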

How the data were processed

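Per the submitters' processing notes, bcl2fastq and RSEM 1.2.22 were used on the reads. What aligner and build they chose is not given in the sources used here. The authors deposited expected counts (RSEM estimates, 9.11% of them not whole) and TPM (abundance per length, scaled within each cell by the authors). Members and gene lists were chosen with earlier results of these data known. Expected counts were summed per day over the members, rounded, and scaled to CPM with edgeR 4.0.16 TMM factors of the 2 sums (1.02 at day 7, 0.985 at day 5). Genes with a mean of 5 CPM or more were kept, and ratios used a prior of 0.5 CPM. A gene near 0 CPM on 1 day passes that filter only through the other day, and can only be counted on that side. With 1 set per day no p-value was computed. The Poisson intervals cover the counting of reads only. C1 reads carry no molecular identifiers, so these intervals do not measure the counting of molecules, and they leave out the spread between cells. The Clopper-Pearson intervals and the limit of 3 cells for a count of 0 cover the counting of cells only. Named are a fixed set, up to 6 members of each of 31 lists, and the 12 largest ratios each way at 50 CPM or more in the higher day, detected (1 TPM) in at least 50% of its cells and past 2-fold with and without each day's highest cell. Predicted genes, pseudogenes, ribosomal protein and histone genes were left out of those. Other genes were named after their values were seen, among them Dusp6, Etv5, Elf3, Actb, AY036118, Tyr, Siglec1, Chrna1, Hba-a1 and list members within 2-fold. No doublet caller was run, and only size factors were taken from DESeq2 1.42.0. The ratio was tried on simulated Poisson sums drawn from 1 shared profile, with no variation between cells. Those sums cannot show how often a 2-fold call is right in these cells.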

Additional observations from a re-analysis of the deposited data

How the results depend on the processing

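Of 223 genes whose log2 ratio was followed, 133 were past 2-fold. Over 18 alternatives, 15 of them planned and 3 chosen after seeing the data, 116 of the 133 kept their sign and 66 were past 2-fold in every one, among them Bnip3, Egln1, Pdk1, Spry2, Spry4 and Trh. Genes higher and lower at day 7 numbered 2489 and 1973 of 13386 with a filter of 1 CPM. They numbered 562 and 505 of 6742 with 20 CPM, and 3193 and 2479 of 20713 with no filter. The share of genes past 2-fold thus changed with the filter as well as the number counted. Averaged TPM gave 1305 higher and 608 lower genes, and the cause was not tested. Without cells holding 3% or more of the Cxcr2-type counts, chosen after seeing the data, 2154 genes were higher and 1708 lower over 44 day 7 and 11 day 5 cells. In that setting the sign turned for Adm (0.16), Aldh1a3 (0.055), Cdx1 (0.21), Chrna1 (0.070), Dusp5 (-0.20), Eras (3.51), Otx2 (3.32) and Tyr (0.18). Chrna1 and Tyr are among the genes by which these cells were left out. A Pou5f1 minimum of 50 TPM turned Ankrd1 (-1.72), Atf3 (-1.95), Krt18 (-0.14), Phlda2 (-0.28), Ccnd2 (0.65) and Usp17lc (-0.034). Ccnd2 also turned at a minimum of 5 TPM (0.27) and 20 TPM (0.58) and without cells under 8000 genes (0.058). Usp17lc turned at 20 TPM (-0.034) and without the Zscan4c cell (-0.032). Without the highest cell Cldn6 (2.10), Gata4 (0.67) and Otx2 (0.063) turned, and without cells under 8000 genes Cldn6 (2.17) and Ndrg1 (-0.99). The causes were not tested. No paired analysis was possible because each day is 1 set of cells and no test was made. Thinning every cell to 300000 counts gave 1238 higher and 1116 lower genes. The number of cells, the single set per day, depth and the Cxcr2-type counts all limit these values.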
